A study of Mus musculus with 17 samples.

Results

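Chemokines are small secreted proteins that guide cells along gradients, and the 10 described here are the ones whose transcripts were chosen as expressed in the heart: Ccl2, Ccl6, Ccl7, Ccl8, Ccl9, Ccl11, Cxcl1, Cxcl12, Cxcl14 and Cxcl16. They were taken by symbol from a table of 28640 genes, all 10 were found, and all 10 were among the 13709 genes that reached the level required for testing. RNA was sequenced in 17 libraries of mouse heart, each called a heart below. Of these, 6 came from mice with a grafted CT-26 tumour that were also made to swim (tumour_swim), 6 from mice with the tumour graft alone (tumour) and 5 from mice with no tumour (control). CT-26 cells come from a colon carcinoma of the mouse, and the study's question is what exercise does to the heart while the graft grows. No swimming group without a tumour was analysed here, and the sources used here do not give strain, sex, age, tumour size or swimming schedule. Whether each library came from its own mouse is not stated, so p-values cover the spread among these samples, which may be technical in part.

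Chemokines act through G-protein-coupled receptors on the cells they recruit or position, and many are held on heparan sulphate at the surface of the cells that make or bind them. Ccl2 and Ccl7 recruit monocytes through Ccr2, Ccl11 (eotaxin) recruits eosinophils through Ccr3, and Ccl6 and Ccl9 are ligands of Ccr1 found in rodents. Cxcl1 draws neutrophils through Cxcr2, Cxcl12 acts through Cxcr4 and is removed by the scavenger receptor Ackr3, and Cxcl16 is made as a membrane-bound ligand of Cxcr6. Cxcl14 is a constitutively made chemokine of epithelium and stroma, and mouse Ccl8 is a ligand of Ccr8. In an injured heart, resident macrophages and fibroblasts are known sources of Ccl2 and Cxcl12.

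Of the 10 genes, 7 lie on chromosome 11 (GRCm38, GENCODE M21), and 6 of those sit in one chemokine cluster. Within it, Ccl2 (chr11:82035571-82037453), Ccl7 (chr11:82045712-82047525), Ccl11 (chr11:82057823-82062955) and Ccl8 (chr11:82115185-82116799) follow one another on the plus strand. Ccl9 (chr11:83572919-83578636) and Ccl6 (chr11:83587882-83593087) are neighbours on the minus strand farther along. Cxcl16 (chr11:70453983-70459984, minus strand) stands apart from them. The remaining genes are Cxcl1 (chr5:90891241-90893115, plus), Cxcl12 (chr6:117168535-117181367, plus) and Cxcl14 (chr13:56288643-56296551, minus). Gm17268 overlaps Ccl2, E230016K23Rik overlaps Ccl6 and Zmynd15 overlaps Cxcl16, each on the opposite strand. Whether counting used strand is not given, so reads from these overlaps cannot be told apart. Of the 50-base words of Ccl9 transcripts 1.97% also occur in other genes, and for the other 9 genes none does.

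Promoter windows from RefSeq (GRCm38.p6) matched 6 of the 10 genes by symbol: Ccl6, Ccl8, Ccl9, Cxcl1, Cxcl12 and Cxcl14; Ccl2, Ccl7, Ccl11 and Cxcl16 were not matched. The 250 bases before the RefSeq start are shown, 5′ to 3′ on the gene's own strand, for the 3 matched genes that were higher in tumour hearts and for Cxcl1, the neutrophil attractant with the least even levels. Capitals mark matches to the motifs searched, on either strand: the TATA box as TATAAA, STAT as TTCNNNGAA, C/EBP as TTGCNNAA, AP-1 as TGANTCA, and the NF-kB motif. The windows are chr13:56296552-56296801 for Cxcl14, chr11:83593088-83593337 for Ccl6, chr11:83578637-83578886 for Ccl9 (all minus strand) and chr5:90890995-90891244 for Cxcl1 (plus strand).
Cxcl14: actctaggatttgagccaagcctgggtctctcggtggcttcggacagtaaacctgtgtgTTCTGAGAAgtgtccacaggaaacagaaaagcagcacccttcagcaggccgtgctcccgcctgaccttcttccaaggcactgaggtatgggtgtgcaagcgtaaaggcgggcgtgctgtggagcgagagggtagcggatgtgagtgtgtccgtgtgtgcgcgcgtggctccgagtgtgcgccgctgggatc
Ccl6: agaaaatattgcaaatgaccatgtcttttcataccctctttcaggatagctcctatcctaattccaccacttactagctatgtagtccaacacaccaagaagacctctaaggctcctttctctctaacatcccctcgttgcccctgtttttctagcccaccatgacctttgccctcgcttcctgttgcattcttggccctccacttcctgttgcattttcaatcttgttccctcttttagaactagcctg
Ccl9: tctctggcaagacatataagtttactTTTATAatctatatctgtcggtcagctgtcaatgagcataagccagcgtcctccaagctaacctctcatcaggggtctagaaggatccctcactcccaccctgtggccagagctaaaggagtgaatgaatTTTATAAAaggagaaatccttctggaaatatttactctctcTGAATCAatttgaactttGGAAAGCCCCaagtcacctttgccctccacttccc
Cxcl1: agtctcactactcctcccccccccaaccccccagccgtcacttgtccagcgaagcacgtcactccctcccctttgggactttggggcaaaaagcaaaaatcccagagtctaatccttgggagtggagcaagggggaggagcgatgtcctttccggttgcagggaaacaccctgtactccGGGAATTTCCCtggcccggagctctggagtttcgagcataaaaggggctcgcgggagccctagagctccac
The Cxcl14 window holds 1 STAT match, 191 to 183 bases before the start, and none of the other motifs. Ccl9 holds an AP-1 match 53 to 47 bases and an NF-kB match 35 to 26 bases before the start, and 3 TATA-box matches, 2 of which overlap. Cxcl1 holds an NF-kB match 71 to 62 bases before the start that overlaps its own reverse-strand match by all but 1 base, and Ccl6 holds none of the 5 motifs. Among the windows not shown, Ccl8 has 1 TATA box, 32 to 27 bases before the start, and Cxcl12 has no match. Of 32841 promoters, 12.4% hold the TATA box, 9.57% the C/EBP motif, 7.02% the STAT motif, 6.75% the AP-1 motif and 3.90% the NF-kB motif. A match is a run of letters and not a shown binding site.

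Sequencing depth, recovered from the step between low values, was 13.4 to 19.8 M reads. Cardiomyocyte markers (Myh6, Tnnt2, Actn2, Ryr2, Tnni3 and Myl2) summed to between 7154 and 10496 FPKM in every library, as heart tissue would give. Levels are in FPKM (fragments or reads per kilobase of exon, scaled to library depth). The length that reproduces them counts all annotated exons of a gene, so a gene whose transcripts use only some of them reads low. Levels therefore compare only roughly between genes, and the order, sums and shares of genes below depend on that length. In 3 libraries (control 1, control 4 and tumour_swim 1) long transcripts were low relative to short ones, against the rest of the group. The Spearman correlation between exon length and a gene's deviation from that rest was -0.61 to -0.57, against -0.29 to 0.63 in the other 14. Control 2 (0.61) and control 3 (0.63) lay as far to the other side. Among the controls, this measure alone cannot show which libraries are unusual. The mitochondrial share of reads was 46.3% in tumour_swim 1 and 30.8% in control 4, with 22.1% as the median of all 17. Results are therefore also given without these 3 libraries, where control 2, 3 and 5 are the only controls. Cxcl12, with 8176 exon bases, is longer than 85.2% of the genes tested, while the other 9 chemokines are shorter than the median gene.

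The level order was headed by Cxcl14 and Cxcl12. In tumour_swim hearts Cxcl14 averaged 86.3 ± 48.4 FPKM, Cxcl12 25.9 ± 10.9, Ccl6 14.01 ± 3.03 and Ccl11 8.06 ± 2.86 FPKM (SD, n = 6). Tumour hearts had 123 ± 54.5 FPKM of Cxcl14, 27.9 ± 8.26 of Cxcl12, 17.3 ± 3.73 of Ccl6 and 12.4 ± 1.56 of Ccl11 (SD, n = 6). In control hearts Cxcl12 came first with 19.8 ± 9.66 FPKM, before Cxcl14 with 13.1 ± 1.88 and Ccl6 with 7.35 ± 2.16 FPKM (SD, n = 5), and Ccl11, at 2.37 ± 1.19 FPKM, came after Ccl8, Ccl9 and Cxcl16. In both tumour-bearing groups the lowest Cxcl14 value (42.1 FPKM in tumour_swim, 74.4 in tumour) lay above the highest Cxcl12 value (34.0 and 42.2 FPKM), whereas in control hearts their ranges overlapped. In control 2, 3 and 5 Cxcl12 (28.1, 29.5 and 21.7 FPKM) lay above Cxcl14 (13.9, 10.9 and 11.9 FPKM). Only in control 1 and 4, with low long transcripts, did Cxcl12 (11.5 and 8.06 FPKM) lie below Cxcl14 (15.8 and 12.96 FPKM). The 6 less abundant chemokines, Ccl2, Ccl7, Ccl8, Ccl9, Cxcl1 and Cxcl16, had group means between 1.12 and 6.20 FPKM, and neighbours in this order overlapped in their ranges. No chemokine was at 0 in any library. Some values rested on few reads, with 5 to 70 reads behind a Ccl8 value (511 exon bases, the shortest of the 10) and 8 to 155 behind a Cxcl1 value, against 313 to 6179 for Cxcl14.

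**Figure D1:**
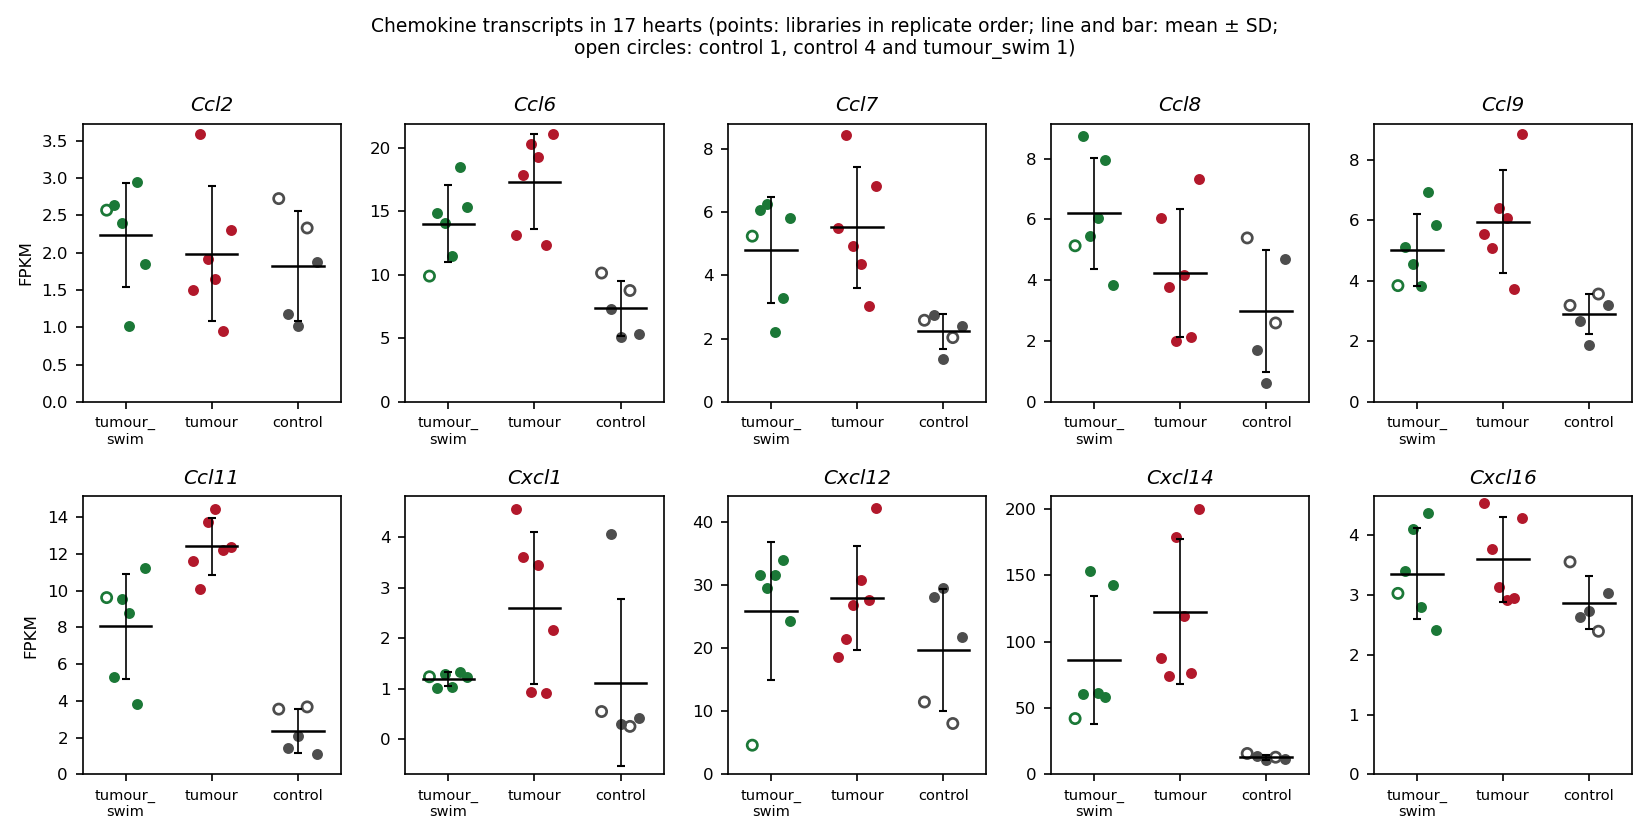
FPKM of each of the 10 chemokines (1 panel each, own y axis) in tumour_swim, tumour and control hearts, with 1 point per library, the mean as a line and the SD as a bar; open circles are control 1, control 4 and tumour_swim 1. Cxcl14, Ccl11, Ccl6, Ccl7 and Ccl9 have every tumour point above every control point, and control 2 stands alone in Cxcl1 at 4.06 FPKM.

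Added up per library, the 10 chemokines gave 87.3 to 230.3 FPKM in tumour_swim (median 140.2), 142 to 307 in tumour (median 182) and 46.6 to 65.8 FPKM in control hearts (median 55.8). Every tumour-bearing library thus exceeded every control library in this sum. Cxcl14 alone made up 41.2 to 66.5% of the sum in tumour_swim, 48.9 to 69.1% in tumour and 19.6 to 27.8% in control hearts. The share of Cxcl12 had medians of 17.8%, 13.9% and 38.9% in tumour_swim, tumour and control hearts. Without Cxcl14 the sum was 45.2 to 83.1 FPKM in tumour_swim, 65.8 to 107 in tumour and 33.7 to 51.9 in control hearts. The tumour group still lay clear of control. In the tumour_swim group only tumour_swim 1, a library with low long transcripts, fell within the control range (45.2 FPKM). The other tumour_swim hearts had 68.8 FPKM or more. Leaving out Cxcl12 as well, the other 8 chemokines summed to 37.2 to 49.1 FPKM in tumour_swim, 38.2 to 65.2 in tumour and 15.1 to 31.7 in control hearts, with no overlap of control with either.

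**Figure D2:**
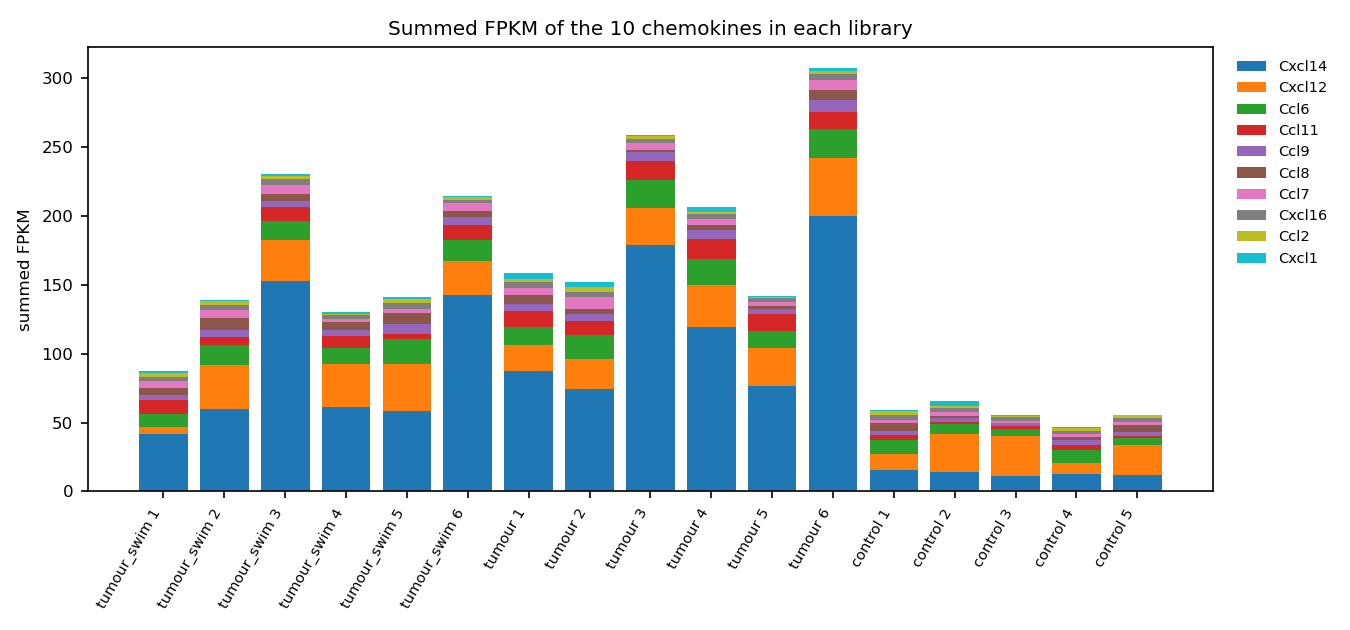
Summed FPKM of the 10 chemokines (y axis) in each of the 17 libraries (x axis), stacked by gene. Cxcl14 fills the greater part of the bar in most tumour-bearing libraries and 19.6 to 27.8% of it in control libraries.

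Tumour hearts were compared with control hearts to ask which chemokine transcripts differ with the graft. Of the 10 chemokines, 5 were higher in tumour hearts (Cxcl14, Ccl11, Ccl6, Ccl7 and Ccl9) and 0 were lower, in limma's test on log2(FPKM + 1) at an adjusted p under 0.05. Of all genes tested, 8.47% were called in this comparison, 5.14% as higher and 3.33% as lower. The median log2 fold change was 0.85 over the 10 chemokines and 0.14 over all genes, and 10 of 10 chemokines, against 63.7% of all genes, had a positive one. With the columns rescaled by median of ratios the all-gene median moved to 0.00, and 9 of 10 chemokines and 49.6% of all genes were positive. In bulk tissue, fewer cells of a type and less RNA per cell cannot be told apart.

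Cxcl14 had the largest fold change of the 10. Its level was 87.5, 74.4, 179, 119, 76.4 and 200.1 FPKM in tumour 1 to 6, against 15.8, 13.9, 10.9, 12.96 and 11.9 FPKM in control 1 to 5. The groups did not overlap, and tumour 3, 4 and 6 lay above the other tumour hearts. The ratio of means was 9.38, and the log2 fold change was 3.03 ± 0.33 (SE; limma adjusted p = 4.9e-05), or 2.90 above the all-gene median. Leaving out control 1, control 4 and tumour_swim 1 gave 3.12 (limma adjusted p = 0.00015).

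Ccl11, the eosinophil attractant, had 11.6, 10.1, 13.7, 14.5, 12.2 and 12.4 FPKM in tumour 1 to 6, against 3.55, 1.42, 2.07, 3.68 and 1.11 FPKM in control 1 to 5. Its tumour values were the most even of the 5 called genes, and control 1 and 4, the control libraries with low long transcripts, had the highest control values. Its log2 fold change was 2.06 ± 0.25 (SE; limma adjusted p = 0.00010), and 2.42 without the 3 libraries. Ccr3, the receptor of Ccl11, was at or near 0, with 0 FPKM in all 6 tumour_swim hearts and at most 0.0182 FPKM in tumour and 0.0702 FPKM in control hearts.

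The Ccr1 ligands Ccl6 and Ccl9 were both higher in tumour hearts. Ccl6 had 13.1, 17.9, 20.3, 19.3, 12.3 and 21.1 FPKM in tumour 1 to 6, against 10.1, 7.34, 5.13, 8.76 and 5.37 FPKM in control 1 to 5. Its log2 fold change was 1.15 ± 0.20 (SE; limma adjusted p = 0.0024). Ccl9 had 5.55, 5.09, 6.40, 6.09, 3.72 and 8.84 FPKM in tumour 1 to 6, against 3.19, 2.68, 1.89, 3.56 and 3.19 FPKM in control 1 to 5. Neither gene's groups overlapped, although for Ccl9 the lowest tumour value, in tumour 5, was close to the highest control value, in control 4. For Ccl9 the log2 fold change was 0.82 ± 0.18 (SE; limma adjusted p = 0.0128). Without the 3 libraries the fold changes were 1.39 for Ccl6 and 0.94 for Ccl9, both called.

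The Ccr2 ligands Ccl2 and Ccl7, neighbours in the cluster, were tested in the same way. Ccl7 had 5.50, 8.44, 4.92, 4.36, 3.03 and 6.82 FPKM in tumour 1 to 6, against 2.58, 2.75, 1.36, 2.03 and 2.41 FPKM in control 1 to 5. All 6 tumour values lay above all control values, and its log2 fold change was 0.98 ± 0.24 (SE; limma adjusted p = 0.0172). The Ccl7 call was lost under 2 rescalings, by median of ratios (0.82, adjusted p = 0.0620) and by quantiles (0.78, adjusted p = 0.0666). Ccl2 had 1.501, 3.59, 1.91, 1.65, 0.954 and 2.30 FPKM in tumour 1 to 6, against 2.72, 1.17, 1.011, 2.33 and 1.87 FPKM in control 1 to 5. Its groups overlapped almost wholly, and its log2 fold change of 0.07 (95% interval -0.40 to 0.54) was not called and turned negative under both scalings (-0.073 and -0.15).

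Cxcl1 was uneven in both groups. It had 4.55, 3.61, 0.942, 3.46, 0.910 and 2.15 FPKM in tumour 1 to 6, against 0.551, 4.06, 0.307, 0.257 and 0.426 FPKM in control 1 to 5. Tumour 1 alone exceeded control 2, while every tumour heart exceeded the other 4 control hearts. A log2 fold change of 0.89 ± 0.33 (SE) was not called (limma adjusted p = 0.0987), and without control 2 it was 1.27 and called (limma adjusted p = 0.0073).

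Ccl8, Cxcl12 and Cxcl16 were not called between tumour and control hearts. Ccl8 averaged 4.24 ± 2.12 FPKM in tumour and 2.9998 ± 2.003 FPKM in control hearts (SD, n = 6 and 5), with a log2 fold change of 0.45 (95% interval -0.25 to 1.16). Cxcl16 averaged 3.60 ± 0.708 FPKM in tumour and 2.87 ± 0.447 FPKM in control hearts, with a log2 fold change of 0.24 (-0.07 to 0.55). Both had tumour hearts above every control heart, 2 of 6 for Ccl8 and 3 of 6 for Cxcl16.

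Cxcl12, the ligand of Cxcr4, had 18.6, 21.5, 26.8, 30.8, 27.6 and 42.2 FPKM in tumour 1 to 6, against 11.5, 28.1, 29.5, 8.06 and 21.7 FPKM in control 1 to 5. Control 1 and control 4 were the lowest, and the other 3 control hearts lay within the tumour range. The log2 fold change was 0.58 (95% interval -0.31 to 1.47) with all libraries and 0.04 without the 3 that stood apart, and was called in neither fit.

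**Figure D3:**
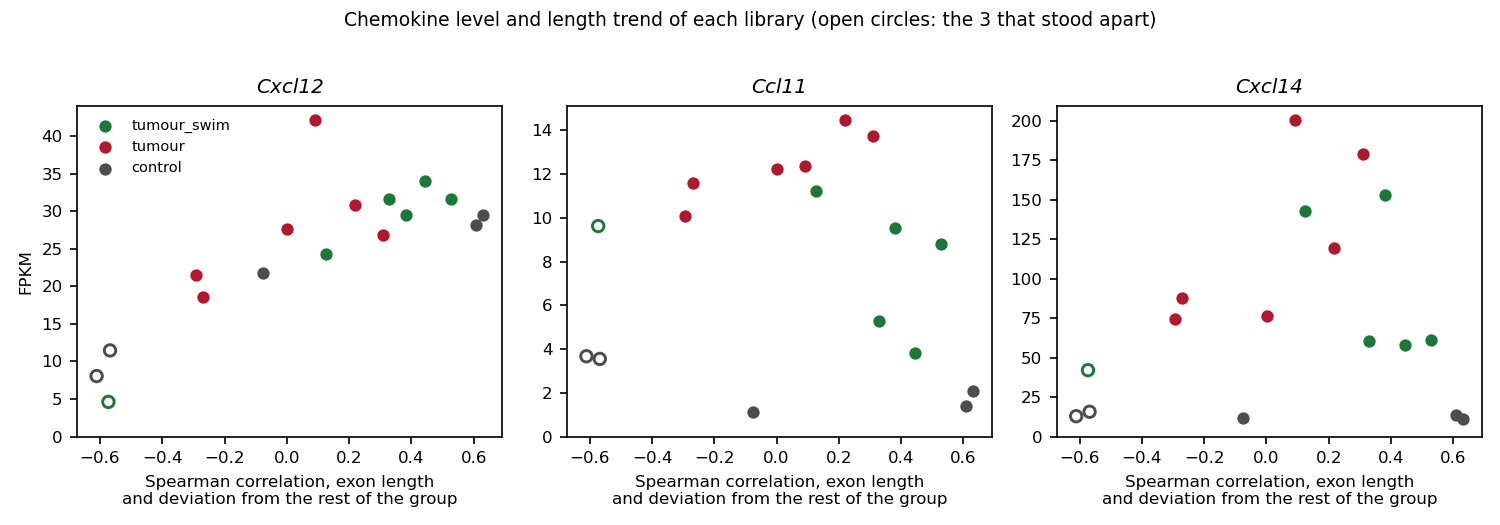
FPKM of Cxcl12, Ccl11 and Cxcl14 (y axes) against each library's Spearman correlation between exon length and deviation (x axes), with 1 point per library coloured by group and open circles for the 3 libraries that stood apart. Cxcl12 is lowest in those 3 libraries (4.63, 8.06 and 11.5 FPKM), whereas Ccl11 and Cxcl14 separate tumour from control hearts on both sides of 0.

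All 6 tumour hearts lay above all 5 control hearts for the 5 called chemokines, and 7.59% of all genes tested had this pattern. The same 5 were called without the 3 libraries, and each stayed called when any 1 of the 17 libraries was left out. Without the 3 libraries 12.5% of all genes were called, 7.12% as higher.

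**Figure D4:**
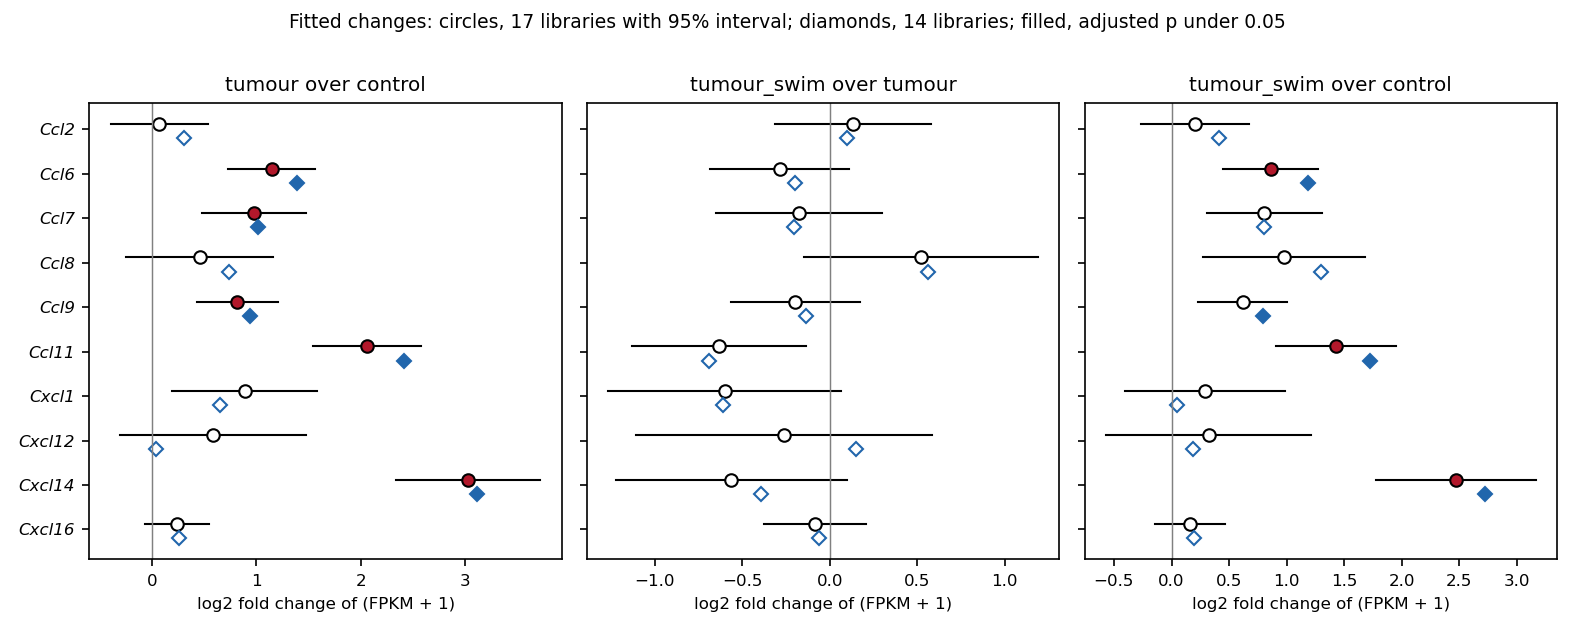
Log2 fold change of FPKM + 1 (x axis) for each chemokine (rows) in the 3 comparisons (panels); circles with 95% intervals are from 17 libraries, diamonds from 14 libraries, and filled symbols have an adjusted p under 0.05. Filled circles number 5 in tumour over control, 0 in tumour_swim over tumour and 3 in tumour_swim over control.

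Tumour_swim hearts were compared with tumour hearts to ask what differs with swimming in mice that carry the graft. None of the 10 chemokines was called by limma, and of all genes tested 0% (0 genes) were called. At an unadjusted p under 0.05 there were 554 of 13709 genes, fewer than the 1 in 20 that chance alone would give. Of the 10 chemokines, 1 was among them, Ccl11. The fitted log2 fold change was positive for 2 of 10 chemokines and negative for 8, and it was positive for 31.8% of all genes. Its median was -0.23 over the chemokines and -0.08 over all genes. Without the 3 libraries the fold change was positive for 3 of 10 chemokines and negative for 7, and it was positive for 60.5% of all genes. The median was then -0.17 over the chemokines and 0.04 over all genes.

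Ccl11 had 9.63, 5.31, 9.56, 8.79, 3.81 and 11.2 FPKM in tumour_swim 1 to 6, against 10.1 to 14.5 FPKM in tumour hearts (median 12.3). In 5 of 6 tumour_swim hearts it was below every tumour heart, and tumour_swim 6 lay within the tumour range. The share of all genes with such a pattern was not counted. The log2 fold change was -0.63 ± 0.24 (SE; 95% interval -1.13 to -0.13), with an unadjusted p of 0.0156 and a limma adjusted p of 0.957. The fold change was -0.69 without the 3 libraries (limma adjusted p = 0.314) and -0.80 with library weights (limma adjusted p = 0.0658).

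Cxcl14 had 42.1, 60.2, 153, 61.3, 58.3 and 143 FPKM in tumour_swim 1 to 6, against 74.4 to 200.1 FPKM in tumour hearts (median 103). The tumour_swim hearts fell in a low set of 4, all below every tumour heart, and a high pair, tumour_swim 3 and 6, within the tumour range. Its log2 fold change was -0.56 (95% interval -1.22 to 0.10), and -0.39 without the 3 libraries.

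Cxcl1 had 1.24, 1.02, 1.29, 1.03, 1.34 and 1.23 FPKM in tumour_swim 1 to 6, against 0.910 to 4.55 FPKM in tumour hearts (median 2.81). The tumour_swim values were close together (SD 0.133 FPKM, against 1.51 FPKM in tumour hearts) and lay at the low end of the tumour range. Its log2 fold change was -0.60 (95% interval -1.26 to 0.06). Ccl8 went the other way, with 5.13, 8.74, 5.46, 6.05, 7.94 and 3.86 FPKM in tumour_swim 1 to 6 against 1.99 to 7.33 FPKM in tumour hearts (median 3.97). Its groups overlapped, and the log2 fold change was 0.52 (95% interval -0.15 to 1.19).

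The other 6 chemokines had fold changes nearer 0 with intervals that included it. These were 0.13 for Ccl2 (95% interval -0.31 to 0.58), -0.29 for Ccl6 (-0.68 to 0.11), -0.17 for Ccl7 (-0.65 to 0.30), -0.20 for Ccl9 (-0.57 to 0.17) and -0.08 for Cxcl16 (-0.38 to 0.21). Cxcl12 had 4.63 FPKM in tumour_swim 1 and 24.3 to 34.0 FPKM in the other 5 tumour_swim hearts, against 18.6 to 42.2 FPKM in tumour hearts. Its log2 fold change was -0.26 (95% interval -1.11 to 0.59), and 0.15 without tumour_swim 1. Intervals of this width do not show that swimming and non-swimming hearts were alike.

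Tumour_swim hearts were then set against control hearts, the same control hearts as above. Of the 10 chemokines, 3 were higher (Cxcl14, Ccl11 and Ccl6) and 0 lower, against 0.905% of all genes called, 0.554% as higher and 0.35% as lower. The median log2 fold change was 0.71 over the 10 chemokines and 0.06 over all genes. Cxcl14 averaged 86.3 ± 48.4 FPKM in tumour_swim and 13.1 ± 1.88 FPKM in control hearts, which is 2.47 ± 0.33 on the log2 scale (SE; limma adjusted p = 0.00105). For Ccl11 the means were 8.06 ± 2.86 and 2.37 ± 1.19 FPKM in tumour_swim and control hearts, and the log2 fold change was 1.43 ± 0.25 (SE; limma adjusted p = 0.0075). All 6 tumour_swim hearts lay above all control hearts for Cxcl14, Ccl11 and Ccl9, a pattern held by 0.715% of all genes tested. The Ccl11 call was lost when only these 2 groups entered the fit (limma adjusted p = 0.0703).

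Ccl6 had 9.90, 14.8, 14.04, 11.5, 18.5 and 15.3 FPKM in tumour_swim 1 to 6, against 5.13 to 10.1 FPKM in control hearts. Tumour_swim 1 fell within the control range and the other 5 lay above it. The log2 fold change was 0.86 ± 0.20 (SE; limma adjusted p = 0.0447). This call was lost when any 1 of 14 libraries was left out, all but control 1, tumour 5 and tumour_swim 1, with adjusted p from 0.0525 to 0.128. It was also lost when rescaled by median of ratios (adjusted p = 0.0642), without a filter (0.0797) and with only the groups compared (0.147), while without the 3 libraries the fold change was 1.19 (limma adjusted p = 0.0028).

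Not called were Ccl7 (0.81, limma adjusted p = 0.132), Ccl8 (0.98, 0.216) and Ccl9 (0.62, 0.140), which averaged 4.81, 6.20 and 5.02 FPKM in tumour_swim and 2.23, 2.9998 and 2.90 FPKM in control hearts. Without tumour_swim 1, Ccl7 (0.77, limma adjusted p = 0.0425) and Ccl9 (0.68, 0.0247) were called. In that fit 2208 of 13786 genes were called, against 124 of 13709 with all 17 libraries. Without all 3 libraries, Ccl9 was called as the fourth (0.80, limma adjusted p = 0.0487), where 2.55% of all genes were called, 1.9% as higher. The log2 fold changes of Ccl2, Cxcl1, Cxcl12 and Cxcl16 were 0.20, 0.29, 0.32 and 0.16, all with intervals that included 0.

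The chemokines were next compared with one another over the 17 libraries after the group means were removed. Of 45 pairs, 1 passed adjustment over the pairs. This was Ccl6 with Ccl9, neighbouring genes, with r = 0.78 (permutation, adjusted p = 0.0171) and rho = 0.80 (permutation, adjusted p = 0.0211). Leaving out the 2 libraries farthest from the median of Ccl6, tumour 5 and tumour_swim 1, r was 0.70. Over the 14 libraries r was 0.77 but the adjusted p was 0.153, and 0 of 45 pairs passed there.

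As a description, the tested genes most like each chemokine in Pearson correlation of log2(FPKM + 1) over the 17 libraries, which share group and depth differences, were as follows. Closest to Cxcl14 were Srpx (r = 0.99), Serpina3n (0.98), an acute phase protease inhibitor, and Il33 (0.97), an alarmin cytokine. For Ccl9 they were Ms4a6d (0.97), Tlr1 (0.91) and Dpt (0.91), and for Ccl6 Rnase4 (0.95), Ifi205 (0.93) and Ms4a6d (0.93). Ccl11 was closest to Hsd11b1 (0.92), which regenerates active glucocorticoid, Plac8 (0.92) and Cd302 (0.91), and Ccl7 to Rab34 (0.88), Scgb3a1 (0.86) and Gpx3 (0.85). Cxcl12 stood closest to Socs5, Thbd and Pdcd6ip (0.99, 0.98 and 0.98), values that were 0.89, 0.92 and 0.91 without the 3 libraries. The remaining chemokines had lower values, with 0.88 for Ccl8 with Mdfi, 0.79 for Cxcl16 with Cd300a, 0.77 for Cxcl1 with Ebi3 and 0.75 for Ccl2 with Arpc3.

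Of 25 other chemokine ligands in the table, 9 were abundant enough to test, and limma called 2 as higher and 0 as lower in tumour hearts against control hearts, where 5.14% and 3.33% of all genes were. Cxcl5, a neutrophil attractant, had 0.583 to 2.42 FPKM in tumour hearts and at most 0.214 FPKM in control hearts, a log2 fold change of 1.03 (limma adjusted p = 0.0030). Cxcl13, which attracts B cells, ranged from 0.315 to 12.0 FPKM in tumour hearts (median 3.85), with at most 0.445 FPKM in control hearts. On the log2 scale it was higher by 1.83 (limma adjusted p = 0.0322), and the call was lost without the 3 libraries (0.0633), without a filter (0.0736), with library weights (0.0632) and without any 1 of control 1, 4 and 5 and tumour 1, 3, 4 and 6 (0.0593 to 0.0750). Both passed the filter on low values only through the tumour-bearing groups. The most abundant of the 9, Ccl21a, a ligand of Ccr7, averaged 36.0, 32.8 and 39.3 FPKM in tumour_swim, tumour and control hearts. Pf4, a platelet chemokine, averaged 17.6, 23.3 and 17.6 FPKM in those groups and was called between tumour and control hearts only without the 3 libraries (0.90, limma adjusted p = 0.0048). Ccl12, a Ccr2 ligand of the mouse, averaged 4.73, 6.45 and 2.80 FPKM, and its tumour fold change of 1.18 (limma adjusted p = 0.0768) was called without the 3 libraries (1.57, 0.0262). Group means of Ccl24 and Cx3cl1 were between 2.43 and 3.61 FPKM and those of Ccl19 and Ppbp at most 1.08 FPKM, and none of these 4 was called. Ccl20, Ccl26 and Cxcl15 were not analysed here.

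The table holds 17 of the listed chemokine receptors, and 4 of them were abundant enough to test. Of these, 2 were higher and 1 was lower in tumour hearts, against 5.14% and 3.33% of all genes. Ccr1, the receptor of Ccl6 and Ccl9, had 2.003, 2.85, 2.76, 2.07, 1.35 and 3.42 FPKM in tumour 1 to 6, against 0.426, 0.236, 0.113, 0.362 and 0.775 FPKM in control 1 to 5. The groups did not overlap, and the log2 fold change was 1.29 ± 0.23 (SE; limma adjusted p = 0.0028). In tumour_swim hearts Ccr1 averaged 1.22 ± 0.732 FPKM, called neither against tumour (-0.67, limma adjusted p = 0.957) nor against control hearts (0.62, 0.254). Ccr1 was called against control hearts without tumour_swim 1, where 2208 of 13786 genes were. Ccr2, the receptor of Ccl2 and Ccl7, averaged 0.928 FPKM in tumour and 0.333 FPKM in control hearts (0.53, limma adjusted p = 0.0496). That call was lost when any 1 of 14 libraries was left out, all but control 1, tumour 5 and tumour_swim 1. It was also lost with the length trend removed, where the fold change was 0.28 (adjusted p = 0.315), with the replicate block (0.103), without a filter (0.0970), with a pseudocount of 0.1 (0.0555) and under both scalings (0.0506 and 0.0855), and kept without the 3 libraries (0.65, 0.0099). Ccr1 and Ccr2 passed the filter only through the tumour-bearing groups.

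Cxcr4, the receptor of Cxcl12, was lower in tumour hearts. It had 3.96, 1.92, 2.59, 2.30, 1.86 and 2.69 FPKM in tumour 1 to 6, against 6.10, 5.51, 5.73, 3.77 and 8.17 FPKM in control 1 to 5. All but tumour 1 lay below every control heart. The log2 fold change was -0.94 ± 0.23 (SE; limma adjusted p = 0.0189), and -1.08 without the 3 libraries; the call was lost without control 1 or control 5 (adjusted p between 0.0513 and 0.0533) and with the replicate block (0.0528). In tumour_swim hearts Cxcr4 had 0.871 to 3.85 FPKM (median 3.16), not called against tumour (0.08, limma adjusted p = 0.961) or control hearts (-0.86, 0.0942). Cxcr4 was called against control hearts without tumour_swim 1, where 2208 of 13786 genes were. Cx3cr1, at 1.13, 1.29 and 1.15 FPKM in tumour_swim, tumour and control hearts, was not called.

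The atypical receptors bind chemokines without classical signalling and clear or carry them, and all 5 were tested. Of them 2 were higher in tumour hearts and 0 lower, against 5.14% and 3.33% of all genes. Ackr1, which carries chemokines across venular endothelium and red cells, averaged 0.795 FPKM in tumour and 0.106 FPKM in control hearts (0.68, limma adjusted p = 0.0142). Ackr1 passed the filter on low values only through the tumour-bearing groups. Ccrl2 averaged 5.15 FPKM in tumour and 3.20 FPKM in control hearts (0.55, limma adjusted p = 0.0374), with no overlap. The Ccrl2 call was lost when any tumour heart or any control heart other than control 2 was left out (0.0554 to 0.0895), with the replicate block (0.0618) and without a filter (0.0558), and its fold change was 0.36 with quantile normalization. Ackr3, the Cxcl12 scavenger and the most abundant of them, averaged 16.0 ± 4.76, 19.5 ± 2.83 and 22.1 ± 4.07 FPKM in tumour_swim, tumour and control hearts and was not called. Ackr2 (1.18, 1.35 and 0.603 FPKM) and Ackr4 (1.2998, 1.21 and 1.71 FPKM) were not called either.

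**Figure D5:**
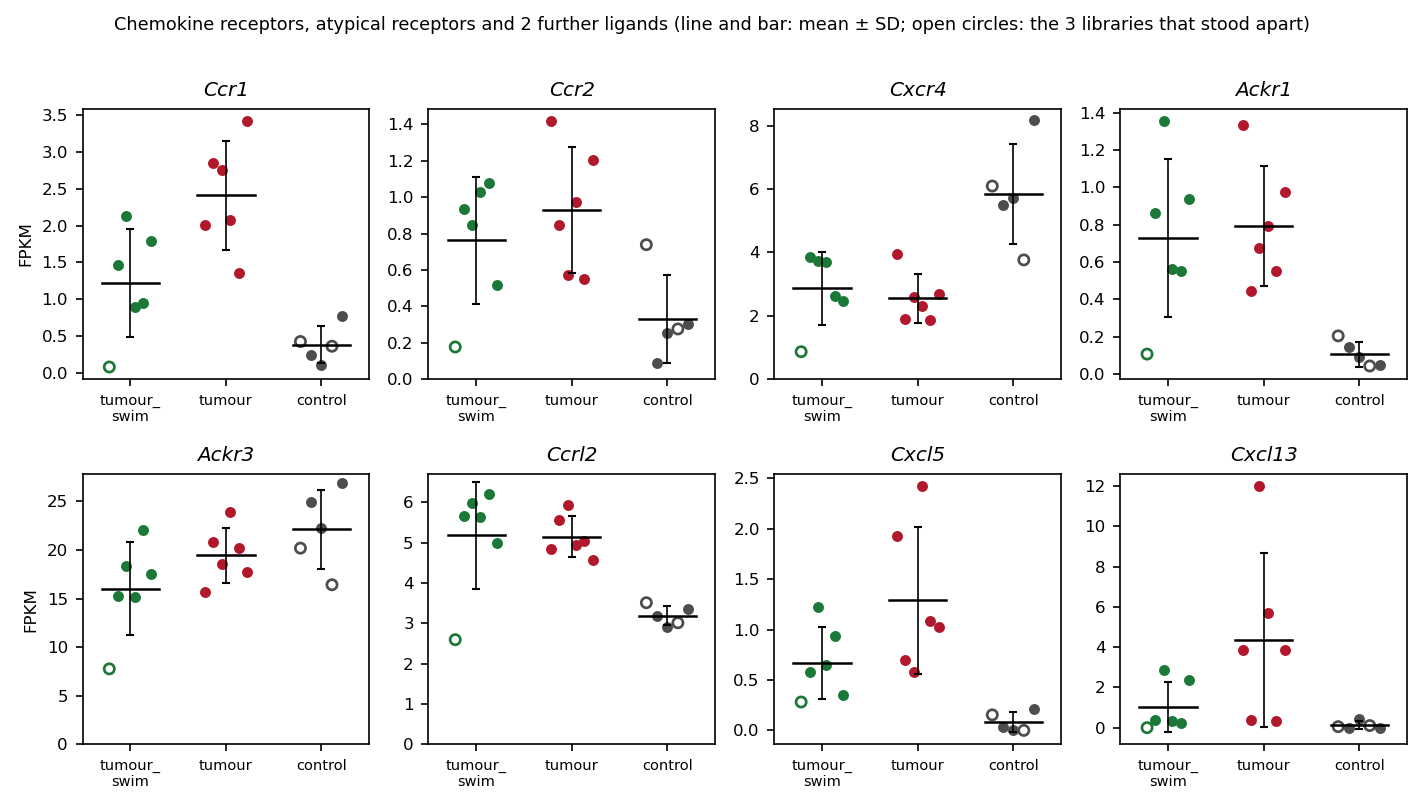
FPKM (y axes) of 4 receptors or carriers in the upper row (Ccr1, Ccr2, Cxcr4, Ackr1) and of Ackr3, Ccrl2, Cxcl5 and Cxcl13 in the lower row, in tumour_swim, tumour and control hearts; points are libraries, lines and bars are means and SDs, and open circles are the 3 libraries that stood apart. Ccr1, Ackr1, Ccrl2 and Cxcl5 have every tumour point above every control point, and Cxcr4 has 5 of 6 tumour points below every control point.

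Cytokines and receptors that are known to induce chemokine genes were listed, and of 22 tested, 6 were higher and 1 lower in tumour hearts, against 5.14% and 3.33% of all genes, and 10 were higher and 1 lower without the 3 libraries. Il33 averaged 21.9 ± 8.84 FPKM in tumour and 2.87 ± 0.888 FPKM in control hearts, with a log2 fold change of 2.51 (limma adjusted p = 5.4e-05). The interleukin-1 receptor Il1r1 averaged 10.6 and 2.32 FPKM in tumour and control hearts (1.83, limma adjusted p = 0.0037), and the oncostatin M receptor Osmr 6.09 and 2.05 FPKM (1.26, 0.0153). Il4ra, the receptor chain of interleukin-4, averaged 7.91 and 3.13 FPKM in tumour and control hearts (1.16, limma adjusted p = 0.0227; lost without control 1, control 4, tumour 3 or tumour 6, 0.0534 to 0.0730). Tnfrsf1a averaged 34.4 and 18.01 FPKM (0.94, 0.0389; lost without any 1 of control 1, 3 and 4, tumour 2, 3, 4 and 6 and tumour_swim 4, 0.0503 to 0.121), and Il17ra 1.18 and 0.397 FPKM (0.64, 0.0123). Il17ra passed the filter only through the tumour-bearing groups, and with the length trend removed its fold change was 0.33 and its call was lost (limma adjusted p = 0.0773). That of Tnfrsf1a was 0.61 without the 3 libraries, and called. Without a filter the calls of Il4ra (0.0506) and Tnfrsf1a (0.0771) were lost. Ifngr2 was lower, with 32.9 FPKM in tumour and 48.6 FPKM in control hearts (-0.54, limma adjusted p = 0.0103). Unlike Il33, the cytokines Il1b, Tnf, Il4 and Ifng were scarce. Il1b averaged 0.504, 0.831 and 1.13 FPKM in tumour_swim, tumour and control hearts, Tnf 0.326, 0.385 and 0.356 FPKM, and Il4 0.569, 0.749 and 0.804 FPKM. Ifng did not exceed 0.128 FPKM in any library. Il13 and Il17a were not analysed here.

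Of 12 tested genes for proteases that cut chemokines and for heparan sulphate proteins that hold them, 3 were higher and 0 lower in tumour hearts, against 5.14% and 3.33% of all genes. On leaving out the 3 libraries, 3 were higher (Sdc1 in place of Mmp9) and 1, Adam17, was lower. Mmp2, a gelatinase that cleaves Ccl7 and Cxcl12, averaged 93.8 ± 34.8 FPKM in tumour and 30.7 ± 13.4 FPKM in control hearts (1.62, limma adjusted p = 0.0270; lost without any 1 of control 1 and 4 and tumour 3, 4 and 6, 0.0633 to 0.0843). Mmp14, an activator of Mmp2, averaged 8.70 and 2.91 FPKM in tumour and control hearts (1.48, limma adjusted p = 0.0443; lost without any 1 of 11 libraries, namely control 1, 3 and 4, tumour 1, 2, 3, 4 and 6 and tumour_swim 2, 4 and 5, 0.0543 to 0.134). Its fold change was 0.91 without the 3 libraries, and called. Mmp9 averaged 1.73 and 0.3797 FPKM (0.89, limma adjusted p = 0.0368) and was lost without the 3 libraries (0.0624) and without any 1 of control 1, 4 and 5 and tumour 1, 3 and 6 (0.0563 to 0.101). Both Mmp14 and Mmp9 were also lost with the replicate block (0.0501 and 0.0737), with a pseudocount of 0.1 (0.0611 and 0.0615) and without a filter (0.0949 and 0.0807), Mmp2 without a filter (0.06115) and Mmp9 with library weights (0.0638). None of the genes of these 5 lists was called between tumour_swim and tumour hearts. Between tumour_swim and control hearts only Il33 was called with all 17 libraries, with 12.4 ± 4.52 FPKM in tumour_swim and 2.87 ± 0.888 FPKM in control hearts (1.75, limma adjusted p = 0.0036). Without the 3 libraries, where 2.55% of all genes were called, limma called 5 genes of the inducer list (Il33, Il1r1, Osmr, Il4ra and Stat3), 2 atypical receptors (Ackr1 and Ccrl2), Ccr2 and Mmp2 as higher and Cxcr4 as lower in tumour_swim than in control hearts.

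Markers of cells that make or answer chemokines moved with the tumour group too, and their part in the chemokine levels was not tested. Monocyte markers (3 of 6 higher in tumour than control hearts: Chil3, F13a1 and Plac8) summed to 7.74 to 33.4 FPKM in tumour_swim, 23.3 to 55.3 in tumour and 9.60 to 17.2 in control hearts. Neutrophil markers (4 of 5 higher: S100a8, S100a9, Retnlg and Mmp8) summed to 6.19 to 16.4, 14.7 to 47.8 and 1.54 to 3.34 FPKM in tumour_swim, tumour and control hearts, with Ly6g at 0 in every heart but tumour 1 (0.117 FPKM). Macrophage markers (4 of 12 higher: Lyve1, Mrc1, Cd163 and Csf1r) summed to 164 to 278, 177 to 440.0 and 120.4 to 215 FPKM in those groups, and fibroblast markers (4 of 7 higher: Dcn, Pdgfra, Lum and Tcf21) had median sums of 1285, 1203 and 752 FPKM. Erythroid markers (3 of 5 higher: Alas2, Hba-a1 and Hbb-bs) had median sums of 3726, 3587 and 1821 FPKM. Without the 3 libraries the counts called higher were 3 of 6 monocyte, 5 of 5 neutrophil, 5 of 12 macrophage, 4 of 7 fibroblast and 4 of 5 erythroid markers. Of all genes, 5.14% were called higher with 17 libraries and 7.12% without the 3. Some calls were lost when 1 library was left out. For Csf1r this held for all libraries but control 2, tumour 5 and tumour_swim 1 (limma adjusted p up to 0.147), and for Tcf21 for all but tumour 5, tumour_swim 1 and tumour_swim 3 (up to 0.109). Lum was lost without any control heart or tumour 2, 3, 4 or 6 (up to 0.0942), Pdgfra without control 1, 4 or 5 or tumour 3, 4 or 6 (up to 0.106), and Hba-a1 and Hbb-bs without control 1 (0.0513 and 0.0508). Chil3, Plac8, S100a8, Retnlg and Mmp8, like Ackr1, Mmp9 and Ear2, passed the filter on low values only through the tumour-bearing groups.

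Eosinophil markers, of interest beside Ccl11, did not sum to more than 0.733, 1.17 and 0.436 FPKM in any tumour_swim, tumour or control heart. Siglecf and Prg2, which define these cells, averaged at most 0.0380 FPKM in any group. Ear2, the 1 of the list that could be tested, was higher in tumour hearts (0.762 and 0.0966 FPKM in tumour and control, log2 fold change 0.66, limma adjusted p = 0.0131). Ear2 passed the filter on low values only through the tumour hearts, so its being tested depended on the group where it was high. Of 5 mast cell markers tested, 0 were higher and 1 (Mcpt4) was lower in tumour hearts, a call lost without the 3 libraries (limma adjusted p = 0.115), where Kit was the 1 called as lower, and without any 1 of control 1, 4 and 5, tumour 1 to 5 and tumour_swim 2, 3 and 4. No T cell or B cell marker was abundant enough to test, with sums of at most 0.880 and 0.952 FPKM in any library. For endothelial (6 tested), mural (5), cardiomyocyte (6), mesothelial (3) and adipocyte (1) markers, limma called 0 between tumour and control hearts with all libraries, and 1 endothelial and 2 mesothelial markers, all lower in tumour hearts, without the 3. Endothelial sums had medians of 150.4, 145 and 155 FPKM in tumour_swim, tumour and control hearts. No marker of any of these lists was called between tumour_swim and tumour hearts, and between tumour_swim and control hearts Plac8, S100a8, S100a9, Alas2, Hba-a1 and Hbb-bs were called with all 17 libraries, all higher in tumour_swim hearts. Without the 3 libraries, 3 macrophage markers (Cd163, Lyve1 and Mrc1), 3 fibroblast markers (Dcn, Pdgfra and Tcf21), F13a1 and Hbb-bt were called as higher there too, and Kit as lower. Of the calls with 17 libraries, Plac8 was lost without control 5, tumour_swim 3 or tumour_swim 6 (limma adjusted p up to 0.0635). Hba-a1 was lost without the 3 libraries (0.0701) and without any 1 of control 1, 3 and 4 and tumour_swim 2, 3 and 4, and Hbb-bs without any 1 library other than control 4, tumour 4, tumour 5, tumour_swim 1 and tumour_swim 5 (up to 0.104).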

How the data were processed

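The deposited table gives 1 column per library, and its values, made by the authors, are FPKM. No header names this unit, so it was checked on the values: times GENCODE M21 exon length, each column adds up to 99.0 to 99.7% of an FPKM total, and low values (under 20 reads) are whole reads to within 0.1 in 98.8 to 99.1% of cases. Per the labels' protocols, TRIzol was used to take total RNA and a NEBNext Ultra kit to make libraries; the submitters' processing notes name mm10, bcl2fastq, FastQC and fastp. For aligner, counter, annotation and strandedness: not given in the sources used here. Positions came from GENCODE M21 by gene ID (28268 of 28640 IDs, 98.7%, matched), since the table's own positions differ from GRCm38, and promoters from RefSeq. All 40 pairs of libraries from 1 group differed by more than counting error, with a chi-square at least 12.5 times its degrees of freedom. Each library was counted as 1 sample, although such a difference cannot show that each came from its own mouse.

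Tests used limma 3.58.1 (R 4.3.3) with an intensity trend, two-sided, on log2(FPKM + 1), a scale that understates the change of low genes. Genes with a group mean of 0.5 FPKM or more entered, the 17 libraries shared 1 fit with 14 residual degrees of freedom, and Benjamini-Hochberg adjustment ran over all genes within a comparison at 0.05. Intervals are at 95%. Pair correlations used 100000 permutations of libraries within groups (Python 3.11.15, numpy 2.4.6, pandas 2.3.3, scipy 1.17.1; plots with matplotlib 3.10.9). The fit was tested on simulated data. Apart from the planted changes, the simulated libraries shared 1 expected profile and had no length trend, so the test does not cover libraries that deviate as here. The chemokines, the related gene lists and the marker lists were chosen with earlier results of these data known. All members were named, from the ligand, receptor, inducer and protease lists the genes past the threshold and the ligands and receptors of at least 0.5 FPKM in a group, and for each member the 3 most similar genes, of which the first alone is printed for 4 members. Alternatives changed the pseudocount, filter, scaling, weights, length trend, libraries and pairing. Depth was 13.4 to 19.8 M reads, and libraries of 1 group differed by more than counting error gives, as above.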

Additional observations from a re-analysis of the deposited data

Results flagged for a closer look

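Of 30 sets of values (10 chemokines in 3 groups), 2 had a library far from the others, and chance flags about 1 in 20. Cxcl1 was 4.06 FPKM in control 2, while the next highest control heart had 0.551 FPKM, a gap of 0.923 of the whole range. Cxcl12 was 4.63 FPKM in tumour_swim 1, while the next lowest tumour_swim heart had 24.3 FPKM, a gap of 0.672 of the range. Tumour_swim 1 is also the library with the fewest genes at 0.5 FPKM or more (10773) and the highest mitochondrial share (46.3%). The cause of either value was not tested.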

How the results depend on the processing

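Over the 10 alternatives other than leaving out 1 library, the count of chemokines called stayed within 1.5 times its value for tumour against control (5) and at 0 for tumour_swim against tumour. For tumour_swim against control, where 3 were called, it was 6 with the length trend removed and 1 with only the groups compared. Leaving out each library in turn gave 5 to 6, 0 and 2 to 5 chemokines in the 3 comparisons.

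Over all genes, tumour against control gave 1161 calls, and 1945 with median-of-ratios scaling, 2092 with quantile normalization, 2385 with the length trend removed and 2124 with only the groups compared. Leaving out 1 library gave 542 (without control 1) to 3666 calls (without tumour_swim 1). Tumour_swim against tumour gave 0 calls, 1 with no filter, 1 without the 3 libraries that stood apart, 45 with library weights, and 0 in each leave-one-out fit. Tumour_swim against control gave 124 calls, 78 with no filter, 366 and 373 with the 2 scalings in the order above, 352 without the 3 libraries, 515 with library weights, 507 with the length trend removed, 48 with only the groups compared, and 55 (without tumour_swim 3) to 2208 (without tumour_swim 1) on leaving out 1.

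Directions turned for uncalled values only. Ccl2 in tumour against control was -0.073 with median-of-ratios scaling, -0.15 with quantile normalization and -0.065 to 0.18 in the leave-one-out fits. Cxcl12 in tumour_swim against tumour was 0.15 without the 3 libraries, 0.16 with library weights and -0.38 to 0.15 in the leave-one-out fits. Cxcl16 in that comparison was 0.029 and 0.021 with the 2 scalings. The pair correlation count was 0 without the 3 libraries. The cause was not tested.

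With the replicate number as a block, tumour against control gave 5 chemokines and 861 genes, tumour_swim against tumour 0 and 0, and tumour_swim against control 2 and 84, without Ccl6 (0.82, limma adjusted p = 0.138). Of the other genes named from the ligand, receptor, inducer and protease lists, Ccr2, Ccrl2, Cxcr4, Mmp9 and Mmp14 also lost their tumour calls. The cell type markers were not examined with the block. The numbers do not pair the samples: same-number correlations ran from -0.72 to 0.71 (median 0.14), 8 of 16 were over 0.1, and 3 of 17 libraries correlated best with their own number.

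Values of Ccl8 and Cxcl1 rest on as few as 5 and 8 reads in a library, so their relative counting error is the largest of the 10.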
